A study of Mus musculus with 6 samples.

Results

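A group of 10 genes of cytosolic RNA and DNA sensing was followed in monocytes with and without the type I IFN receptor. The genes were the RNA receptors *Ddx58* (RIG-I), *Ifih1* (MDA5), and *Dhx58* (LGP2), the helicase *Ddx60*, the adaptors *Mavs* and *Tmem173* (STING), the RNA-binding effectors *Zc3hav1* (ZAP) and *Eif2ak2* (PKR), and the limiters *Adar* and *Trex1*. They were chosen by name, with earlier results of these data known, so counts over the 10 genes describe them and are not independent support. All 10 were found by matching Ensembl identifiers to GENCODE M21 symbols among the 54232 genes of the deposited files. All 10 passed the expression filter, as did 11254 genes in total.

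The libraries were made from monocytes of the central nervous system (CNS) of mice with EAE (experimental autoimmune encephalomyelitis), which models multiple sclerosis in animals. Irradiated recipients that expressed GFP were reconstituted with equal parts of WT (CD45.1) and *Ifnar1*-/- (CD45.2) bone marrow, and EAE was induced 6 to 7 weeks later. All mice received 30000 IU of IFN-β per day, and GFP- CD45+CD11b+Ly6ChiLy6G- cells were sorted at disease peak into 3 WT and 3 *Ifnar1*-/- libraries. IFNAR1 is a chain of the receptor shared by all type I IFNs, so the comparison asked what the receptor on the monocyte itself changes in a shared inflamed host. No library came from mice without IFN-β, and receptor genotype cannot be told apart from the CD45 allele or other differences between the donors. The labels number the libraries from 1 to 3 in each group without saying whether each came from its own mouse. A figure legend of the study gives 3 recipient mice and 3 monocyte samples per genotype, without matching samples to mice. WT and *Ifnar1*-/- libraries may therefore be paired by mouse. The p-values measure the spread between these libraries, which may be partly technical. In bulk RNA, fewer cells of a type and less RNA per cell cannot be told apart.

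RIG-I and MDA5 bind double-stranded RNA in the cytosol, and both signal through MAVS on mitochondria to TBK1 and the IFN regulatory factors, which switch on type I IFN genes. LGP2 binds the same kind of RNA without a signaling domain of its own and modulates the other receptors. Cytosolic DNA is read by cGAS, whose cyclic dinucleotide product activates STING. Many of these sensors are themselves IFN-stimulated genes, many of which carry an IFN-stimulated response element (ISRE) near the start of the gene. ADAR edits and TREX1 degrades the cell's own nucleic acids, which keeps the sensors quiet.

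Promoter sequence was read for 8 of the 10 genes from RefSeq (build GRCm38.p6, 250 bases before to 50 bases after each annotated start site). *Dhx58* and *Tmem173* were not matched. Both strands were searched for the ISRE core GAAANNGAAA, for its extended form GAAANNGAAACT, which contains the core, and for the gamma-activated site (GAS) TTCNNNGAA. The core was found in 4 of the 8 genes, *Ddx58*, *Ifih1*, *Ddx60*, and *Eif2ak2*, against 3.99% of the 27025 genes of the table (3.44% of its 32851 promoters). All 4 were upregulated in WT monocytes, as were 3 of the 4 searched genes without the core (*Zc3hav1*, *Adar*, and *Trex1*, but not *Mavs*). To show how the matches differ between genes, the stretch with the core is printed for each gene that holds it, with the core in capitals and each sequence written along the strand of its gene. The windows lie at chr4:40239804-40239833 (minus strand) for *Ddx58*, chr2:62646206-62646235 (minus strand) for *Ifih1*, chr8:61928027-61928086 (plus strand) for *Ddx60*, and chr17:78882535-78882564 (minus strand) for *Eif2ak2*.
Ddx58: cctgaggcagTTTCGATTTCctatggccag
Ifih1: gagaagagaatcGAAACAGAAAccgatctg
Ddx60: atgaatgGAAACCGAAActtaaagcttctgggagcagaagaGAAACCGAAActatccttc
Eif2ak2: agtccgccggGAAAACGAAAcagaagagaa

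The *Ddx60* promoter held the core at 2 places, from base -53 to -44 and from base -19 to -10 relative to the start, and 0.225% of all promoters held it at least at 2 places. Both *Ddx60* matches also had the extended form, which occurred in 0.271% of all promoters. In *Ddx58* the core lay on the opposite strand from base 3 to 12 and also had the extended form. The *Ifih1* match lay from base 33 to 42 and the *Eif2ak2* match from base 19 to 28, both after the start site. No core was found in *Mavs*, *Zc3hav1*, the 3 annotated starts of *Adar*, or the 2 of *Trex1*, which says only that these letters are not in those windows. The GAS letters, present in 8.30% of all promoters, were found before the start of *Eif2ak2* (base -178 to -170) and after the third start of *Adar* (base 23 to 31). A match describes the sequence and does not show that a factor binds there.

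**Figure D1:**
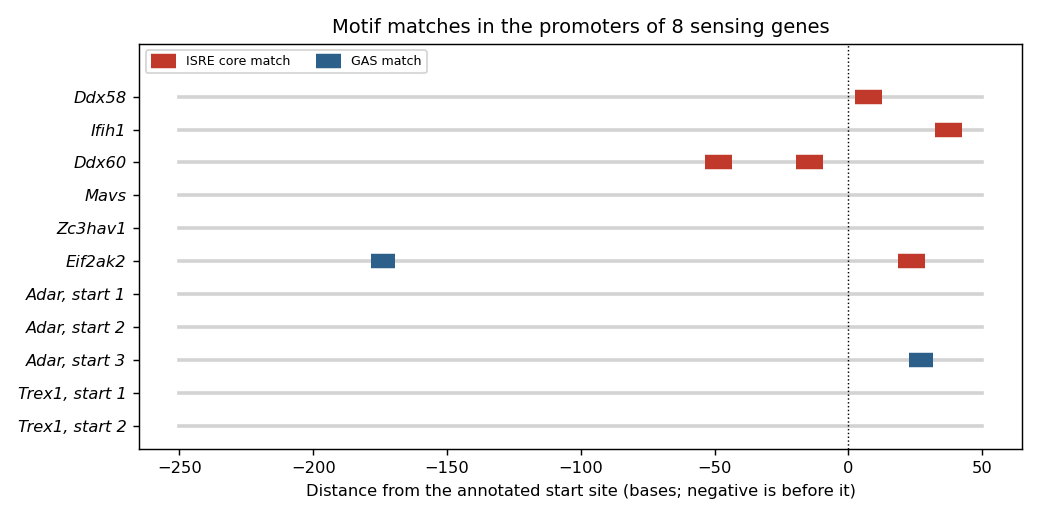
Positions of ISRE core (red) and GAS (blue) matches relative to the annotated start site, in bases, for the 11 RefSeq starts of 8 sensing genes, with a grey line for each searched window. *Ddx60* is the only one of the 8 with the ISRE core at 2 places, and *Mavs*, *Zc3hav1*, and *Trex1* have no match of either kind.

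Expression is given as normalized CPM, which are RSEM expected counts divided by a library size that TMM factors correct, and log2 fold changes are WT over *Ifnar1*-/-. A gene was called when the edgeR quasi-likelihood test gave a Benjamini-Hochberg adjusted p of at most 0.05 and the fold change was at least 1.5. *Ifnar1*, the targeted gene, had 153, 126, and 111 normalized CPM in WT and 110, 102, and 109 in *Ifnar1*-/- monocytes (log2 fold change 0.28, SE 0.15, edgeR adjusted p = 0.36). Gene-level counts hold no record of the exons that were read, so they do not show the deletion.

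Of the 10 sensing genes, 8 were upregulated in WT monocytes, against 1.67% of all tested genes upregulated, 0.462% downregulated, and 2.13% called in either direction. None was downregulated by edgeR, DESeq2, or limma-voom, and 0 were lower at an unadjusted p under 0.05. The median log2 fold change of the 10 genes was 1.25, and that of all tested genes was -0.01. In the same 8 genes every WT library lay above every *Ifnar1*-/- library, an order found in 11.1% of tested genes.

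The RNA receptors were all higher in WT monocytes. *Ddx58* (ENSMUSG00000040296.15, chromosome 4, 40203773 to 40239828, minus strand), whose protein recognizes RNA with a 5′ triphosphate, was measured at 169, 79.3, and 105 normalized CPM in WT monocytes (libraries 1, 2, and 3) and at 23.1, 22.7, and 22.1 in *Ifnar1*-/- monocytes. The WT libraries varied more widely, with a coefficient of variation of 39.3% against 2.21%, yet even the lowest WT library was 3.44-fold above the highest *Ifnar1*-/- library. Each coefficient comes from 3 libraries, the *Ifnar1*-/- one from 151, 134, and 120 expected counts, and the difference in spread was not tested. The log2 fold change was 2.38 (SE 0.25, 95% interval 1.82 to 2.94, edgeR adjusted p = 0.000564), a 5.21-fold difference.

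*Ifih1* (ENSMUSG00000026896.14, chromosome 2, 62595798 to 62646255, minus strand) encodes the receptor for long double-stranded RNA. It had 162, 122, and 134 normalized CPM in WT and 45.5, 48.3, and 39.9 in *Ifnar1*-/- monocytes. The groups did not overlap, and the log2 fold change was 1.65 (SE 0.16, 95% interval 1.29 to 2.00, edgeR adjusted p = 0.00029). *Dhx58* (ENSMUSG00000017830.15, chromosome 11, 100694884 to 100704271, minus strand), the regulatory receptor, had 124, 83.7, and 84.7 normalized CPM in WT and 21.8, 29.5, and 25.2 in *Ifnar1*-/- monocytes. Its WT libraries 2 and 3 were close together below library 1, all above the *Ifnar1*-/- group, and the log2 fold change was 1.94 (SE 0.20, 95% interval 1.5 to 2.37, edgeR adjusted p = 0.000389). The antisense gene *Dhx58os*, which overlaps it, had 0 counts in every library.

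*Ddx60* (ENSMUSG00000037921.15, chromosome 8, 61928087 to 62038244, plus strand), a helicase described as a cofactor of RIG-I-like receptors, showed the largest fold change of the 10 genes. It had 56.1, 55.0, and 49.2 normalized CPM in WT and 5.95, 4.07, and 5.52 in *Ifnar1*-/- monocytes, the latter from 39, 24, and 30 expected counts. These counts lay above the detection floor of 3 counts, which covers counting error only. The lowest WT library was 8.26-fold above the highest *Ifnar1*-/- library, and the log2 fold change was 3.36 (SE 0.19, 95% interval 2.95 to 3.77, edgeR adjusted p = 7e-06), or 10.3-fold. *Ddx60* was also the gene with the ISRE core at 2 places, as printed above.

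**Figure D2:**
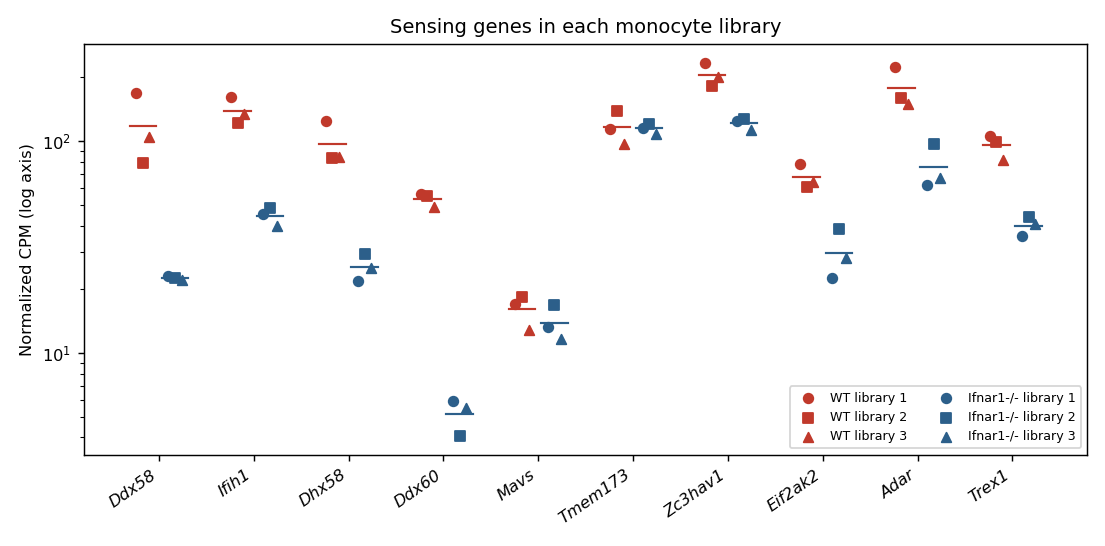
Normalized CPM (log axis) of the 10 sensing genes in each WT (red) and *Ifnar1*-/- (blue) library, with a symbol for each library number and a line at the group mean. The groups are apart in 8 genes, most widely in *Ddx60* (53.4 ± 3.73 against 5.18 ± 0.988, SD, n = 3), and overlap in *Mavs* and *Tmem173*.

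Neither adaptor was called. *Mavs* (ENSMUSG00000037523.13, chromosome 2, 131234063 to 131248025, plus strand) had 17.1, 18.5, and 12.8 normalized CPM in WT and 13.3, 16.9, and 11.6 in *Ifnar1*-/- monocytes, and the groups overlapped. The WT level was 1.16-fold that of *Ifnar1*-/- monocytes, with a 95% interval of 0.83 to 1.61 (edgeR adjusted p = 0.654). Expected counts of *Mavs* ranged from 63 to 120 per library.

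*Tmem173* (ENSMUSG00000024349.9, chromosome 18), the adaptor of the DNA pathway, had 114, 139, and 97.5 normalized CPM in WT and 115, 121, and 108 in *Ifnar1*-/- monocytes. The *Ifnar1*-/- libraries all lay within the range of the WT libraries. The fold change was 1.02, with a 95% interval of 0.80 to 1.30 (edgeR adjusted p = 0.952). The log2 fold change of 0.03 turned to -0.10 without WT library 2. These adaptor intervals end below the interval of each of the 3 receptors, although the difference between genes was not tested.

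Both RNA-binding effectors were upregulated, with smaller estimated fold changes than the receptors, although the difference between genes was not tested. *Zc3hav1* (ENSMUSG00000029826.14, chromosome 6, 38305286 to 38354603, minus strand), which binds CpG-rich viral RNA and promotes its decay, had 235, 183, and 200 normalized CPM in WT and 124, 128, and 113 in *Ifnar1*-/- monocytes. The groups were apart, with a log2 fold change of 0.76 (SE 0.15, 95% interval 0.43 to 1.09, edgeR adjusted p = 0.0265), the smallest of the 8 called genes. Of the 6 fits that left out a library, only the fit without WT library 2 kept this call. The adjusted p rose to 0.0559 and 0.0754 without WT libraries 1 and 3 and to 0.12, 0.0679, and 0.145 without *Ifnar1*-/- libraries 1, 2, and 3. The log2 fold change itself stayed between 0.66 and 0.85.

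*Eif2ak2* (ENSMUSG00000024079.4, chromosome 17, 78852564 to 78882573, minus strand) encodes the kinase that halts translation through eIF2α when it binds double-stranded RNA. It had 78.4, 60.8, and 64.0 normalized CPM in WT and 22.6, 38.6, and 28.1 in *Ifnar1*-/- monocytes. All WT libraries were higher, and *Ifnar1*-/- library 2 lay nearest to them. The log2 fold change was 1.19 (SE 0.20, 95% interval 0.74 to 1.63, edgeR adjusted p = 0.0117). It was 1.02 without *Ifnar1*-/- library 1 and 1.16 without *Ifnar1*-/- library 3, and in these fits the adjusted p of 0.0621 and 0.0732 no longer passed.

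The limiters, which act on the cell's own RNA and DNA, were also higher in WT monocytes. *Adar* (ENSMUSG00000027951.16, chromosome 3, 89715022 to 89753446, plus strand), which converts adenosine to inosine in double-stranded RNA, had 223, 160, and 150 normalized CPM in WT and 62.3, 97.4, and 66.8 in *Ifnar1*-/- monocytes. The groups did not overlap and the log2 fold change was 1.24 (SE 0.21, 95% interval 0.76 to 1.71, edgeR adjusted p = 0.0134). As for *Eif2ak2*, the call was lost without *Ifnar1*-/- library 1 (1.11, adjusted p = 0.0991) or library 3 (1.17, adjusted p = 0.0838). The gene *Chrnb2*, on the opposite strand and overlapping *Adar*, had at most 1.71 normalized CPM.

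*Trex1* (ENSMUSG00000049734.9, chromosome 9, 109057933 to 109059734, minus strand), an exonuclease for cytosolic DNA, had 106, 99.7, and 81.5 normalized CPM in WT and 35.6, 43.7, and 40.5 in *Ifnar1*-/- monocytes. Each group was compact and the log2 fold change was 1.26 (SE 0.15, 95% interval 0.92 to 1.61, edgeR adjusted p = 0.00139). *Trex1* overlaps *Atrip* on the same strand, and its expected counts were not whole numbers in most libraries, so reads may have been divided between the 2 genes. *Atrip* itself had 11.5 to 17.8 normalized CPM over the 6 libraries, with a log2 fold change of 0.07 (edgeR adjusted p = 0.904).

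**Figure D3:**
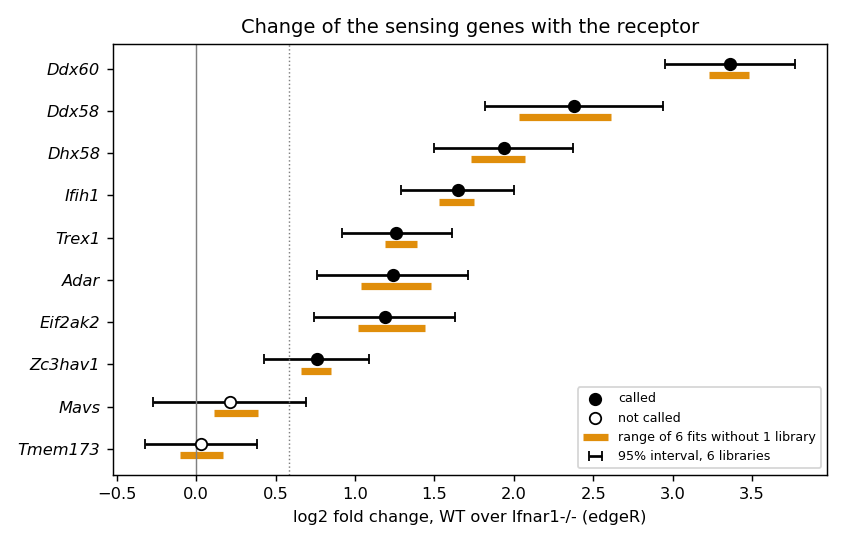
Log2 fold change (WT over *Ifnar1*-/-, edgeR) of each sensing gene with its 95% interval (black), and the range over 6 fits that each leave out 1 library (orange). The dotted line marks the 1.5-fold limit, and the order runs from *Ddx60* (3.36) to *Tmem173* (0.03), with filled circles for the 8 called genes.

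WT library 1 was the highest WT library in all 8, an order found in 36.1% of tested genes and in 83.0% of the 188 genes upregulated in WT monocytes. Among the *Ifnar1*-/- libraries, library 2 was highest for 6 of the 8, against 35.3% of tested genes, the exceptions being *Ddx58* and *Ddx60*. Of the 8 genes, 5 were called in each of the 6 fits that left out a library (*Ddx58*, *Ifih1*, *Dhx58*, *Ddx60*, and *Trex1*), and the number of called members was 5 without *Ifnar1*-/- library 1 or library 3.

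Expected counts totaled 4531782 to 7321380 in WT libraries and 5442568 to 6916101 in *Ifnar1*-/- libraries, and 3 counts corresponded to 0.427 to 0.637 normalized CPM. The summed level of 8 monocyte markers was 8413.7 to 10220.9 normalized CPM in WT and 8870.6 to 10196.1 in *Ifnar1*-/- libraries. Among these markers *Ly6c2*, which encodes the Ly6C antigen used for the sort and has a close paralog, was called higher in WT monocytes (726, 788, and 640 against 177, 300, and 337 normalized CPM, log2 fold change 1.40, edgeR adjusted p = 0.00959). Summed markers of lymphocytes were low and higher in WT libraries. The 8 T cell markers summed to 21.0 to 49.8 against 8.13 to 20.5 normalized CPM, with all 8 means higher in WT, none at 0, and none called. Among them, *Trac* and *Cd8a* did not pass the filter and were not tested. The higher WT mean of *Cd8a* came from library 3 (0.996, 0.85, and 10.5 against 1.53, 0.678, and 0.92). The 6 NK cell markers summed to 3.40 to 13.2 against 1.02 to 3.36 normalized CPM, with all 6 means higher in WT. Of these, *Ncr1* and *Klre1* had at most 3 counts in every library. The 5 B cell markers reported here summed to 1.49 to 1.71 against 0.305 to 1.10 normalized CPM, with 2 means higher in WT and *Pax5* and *Ebf1* at 0. *Cd79a* and *Ms4a1* had at most 3 counts in every library, so the sum was nearly all *Cd79b* (1.57, 1.49, and 1.38 against 0.305, 0.678, and 0.92). Summed neutrophil, microglia, dendritic cell, and plasmacytoid dendritic cell markers overlapped between groups. The part of these cells in the differences above was not tested.

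To compare levels between genes, TPM was used, which is scaled by transcript length. In WT monocytes *Trex1* was the highest of the 10 genes, with 102 ± 16.3 TPM (SD, n = 3), and it exceeded the next gene in all 3 libraries. *Zc3hav1* (52.7 ± 5.21), *Tmem173* (51.2 ± 15.2), *Eif2ak2* (51.0 ± 11.6), and *Adar* (49.8 ± 1.57 TPM) followed, and neighbours among these 4 did not differ beyond their spread. The receptors came next, with 44.5 ± 1.16 TPM for *Dhx58*, 35.5 ± 3.15 for *Ddx58*, and 35.3 ± 4.56 for *Ifih1*, the last pair not differing beyond its spread. *Ddx60* (11.9 ± 4.62) and *Mavs* (5.20 ± 1.26 TPM) were lowest.

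In *Ifnar1*-/- monocytes the order of TPM levels was different. *Tmem173* came first with 49.6 ± 6.89 TPM (SD, n = 3), above *Trex1* with 41.9 ± 7.75 and *Zc3hav1* with 31.1 ± 4.61 in each library. *Adar* had 22.1 ± 6.44, *Eif2ak2* 19.0 ± 8.67, *Dhx58* 12.7 ± 3.15, and *Ifih1* 11.5 ± 2.46 TPM, and of these neighbours *Dhx58* and *Ifih1* did not differ beyond their spread. *Ddx58* had 7.37 ± 0.135 TPM. *Mavs* (4.67 ± 1.29) and *Ddx60* (1.43 ± 0.384 TPM) stood at the bottom in reverse order to that of WT monocytes, with *Mavs* above *Ddx60* in all 3 *Ifnar1*-/- libraries and below it in all 3 WT libraries. TPM was not compared between groups, because the 7SL RNA genes *Rn7s1* and *Rn7s2* took 33.0% of TPM in WT library 1 and 11.5% to 15.3% in the others.

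**Figure D4:**
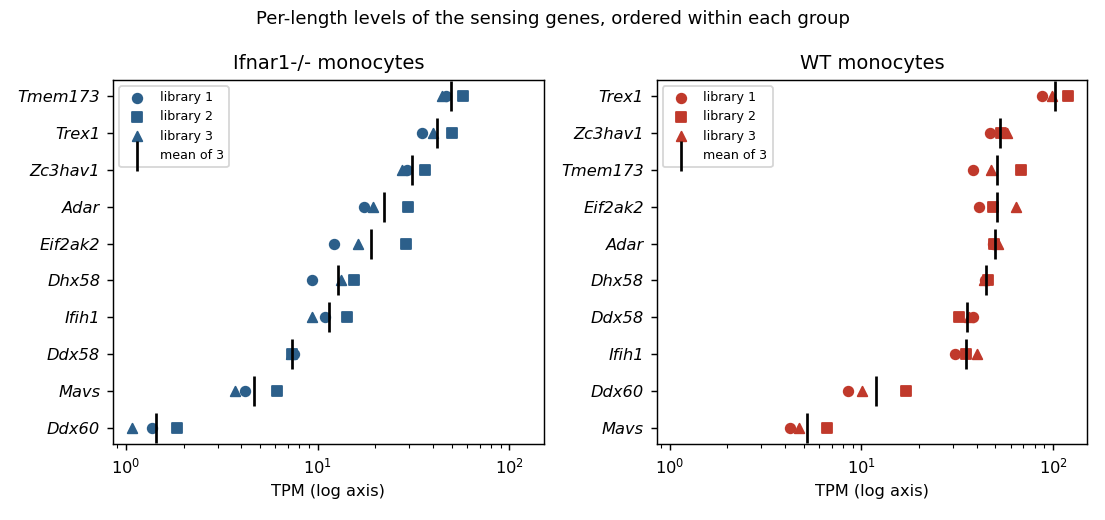
TPM (log axis) of the 10 sensing genes within *Ifnar1*-/- (left) and WT (right) monocytes, with a symbol for each library, a black line at the mean of 3 libraries, and genes ordered by that mean. *Tmem173* leads in *Ifnar1*-/- monocytes (49.6 TPM) and *Trex1* in WT monocytes (102 TPM).

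The balance of the 3 RNA receptors was measured as the log2 ratio of their TPM within each library, which does not depend on the library's scaling. The ratio of *Ddx58* to *Ifih1* was 0.31, -0.12, and -0.14 in WT and -0.54, -0.94, and -0.37 in *Ifnar1*-/- libraries. Each WT ratio was higher, with a mean difference of 0.64, and the two-sided exact permutation test gave p = 0.1, the lowest p this design can reach (0.3 after Benjamini-Hochberg adjustment over 3 ratios). *Ddx58* over *Dhx58* differed by 0.42 (exact p = 0.2, adjusted 0.3) and *Dhx58* over *Ifih1* by 0.21 (exact p = 0.5, adjusted 0.5), with overlapping groups. *Ddx58* made up 28.4% to 33.8% of the TPM of the 3 receptors in WT and 19.9% to 27.0% in *Ifnar1*-/- libraries.

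Transcript usage was compared through the RSEM transcript length, which is the mean length of a gene's transcripts weighted by their estimated abundance. Of the 9 members with several annotated transcripts, only *Mavs* had groups that did not overlap, against 10.7% of comparable genes. Its length was 3046.7, 3057.0, and 2977.7 bases in WT and 2941.6, 2963.0, and 2920.8 bases in *Ifnar1*-/- monocytes (two-sided exact permutation p = 0.1, adjusted 0.9 over 9 genes). For *Adar*, which has 9 annotated transcripts, the length was 3384.2 ± 179 bases in WT and 3331.3 ± 169 bases in *Ifnar1*-/- monocytes (SD, n = 3), well within the spread. *Ddx60* varied most, from 3481.8 to 5228.4 bases in WT and from 2414.0 to 4643.6 bases in *Ifnar1*-/- libraries, and was shortest in library 2 of each group. The *Ifnar1*-/- lengths rested on only 39, 24, and 30 expected counts over 6 annotated transcripts, so they are uncertain. TPM is scaled by length, and *Ddx60* had 8.53, 17.17, and 10.01 TPM in WT libraries 1, 2, and 3.

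Other genes of the same pathways were examined in 4 lists, which were also chosen with earlier results of these data known. Most of them were not called, but only 2.13% of all tested genes were called in either direction. In lists of this size, 0 or 1 called gene is near that share. Of 26 genes of RIG-I-like receptor and MAVS signaling, 24 were tested and 1 was upregulated, with a list median log2 fold change of 0.11. This was *Irf7*, the IFN regulatory factor that amplifies type I IFN production, with 721, 413, and 393 normalized CPM in WT and 25.8, 32.7, and 31.8 in *Ifnar1*-/- monocytes (log2 fold change 4.08, SE 0.26, edgeR adjusted p = 1.65e-05). *Trim25*, the ubiquitin ligase that acts on RIG-I, is named here after its values were seen. It had 288, 195, and 223 against 152, 124, and 145 normalized CPM and missed the threshold (log2 fold change 0.75, adjusted p = 0.0609).

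In the list of DNA sensing and STING regulation, 27 of 29 genes were tested and 4 were upregulated, with a median log2 fold change of 0.01. *Cgas*, the enzyme upstream of STING, had 14.2, 11.5, and 13.8 normalized CPM in WT and 4.27, 4.74, and 4.97 in *Ifnar1*-/- monocytes. The groups were apart, with a log2 fold change of 1.5 (SE 0.22, edgeR adjusted p = 0.00462), beside the 0.03 of *Tmem173*. The other called genes were *Zbp1*, a sensor of Z-form nucleic acid (1.47, adjusted p = 0.00242), *Ifi35* (1.04, adjusted p = 0.00718), and *Ifi204*, a DNA-binding protein of the IFI200 family (0.97, adjusted p = 0.00868). *Ifi204* has near-identical neighbours between which reads could be divided, so its value is uncertain. Its call was also lost without *Ifnar1*-/- library 1 (0.98, adjusted p = 0.0518) or library 3 (0.92, adjusted p = 0.0748), which left 3 called genes in the list.

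No gene was called among the 18 tested of 21 nucleases and other limiters of self nucleic acid, which had a median log2 fold change of -0.06. DESeq2 and limma-voom also called 0 of these, and 3 had an unadjusted edgeR p under 0.05. The most abundant of them by TPM were *Samhd1*, which depletes deoxynucleotides (0.19, adjusted p = 0.609), the exonuclease *Pld4* (0.28, adjusted p = 0.44), and the ribonuclease *Rnaset2b* (-0.40, adjusted p = 0.216). *Trex1* and *Adar* were not part of this list.

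Among 29 partners in double-stranded RNA binding, eIF2 kinase activity, and RNA decay, 27 were tested and 1 was upregulated, with a median log2 fold change of -0.05. It was *Parp12*, a relative of ZAP with the same kind of zinc fingers, at 235, 232, and 203 normalized CPM in WT and 76.5, 98.5, and 89.6 in *Ifnar1*-/- monocytes (log2 fold change 1.34, SE 0.15, edgeR adjusted p = 0.000849). The other eIF2 kinases, named after their values were seen, had log2 fold changes of -0.03 for *Eif2ak1* (95% interval -0.38 to 0.33), -0.01 for *Eif2ak3* (-0.33 to 0.32), and -0.13 for *Eif2ak4* (-0.48 to 0.23), beside 1.19 for *Eif2ak2*. None of the 4 lists held a gene called lower in WT monocytes by edgeR, DESeq2, or limma-voom. At an unadjusted edgeR p under 0.05, 3, 2, 1, and 4 genes of the lists, in the order given, were lower, and 5, 5, 2, and 5 were higher.

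**Figure D5:**
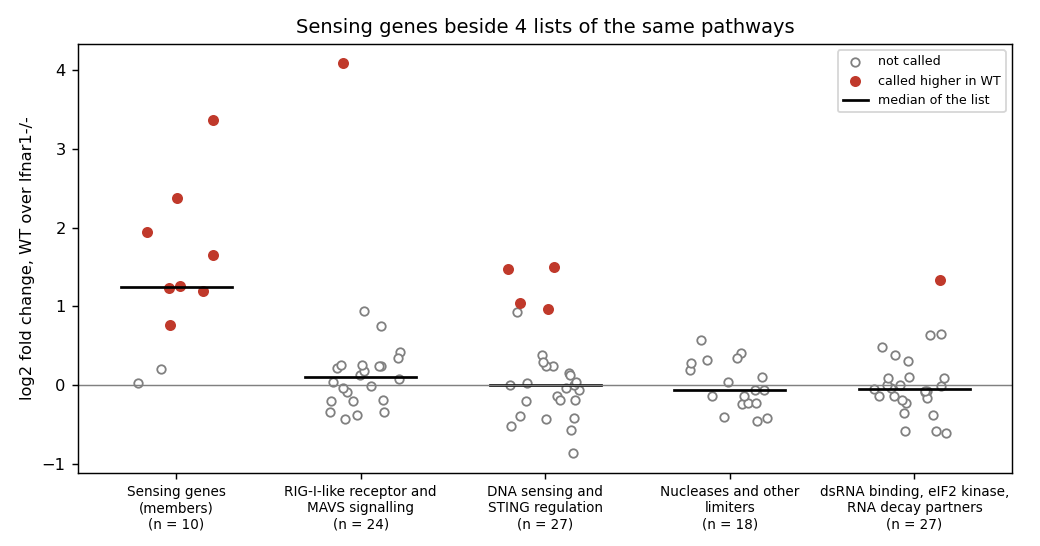
Log2 fold change (WT over *Ifnar1*-/-) of the 10 sensing genes and of the tested genes in 4 lists of the same pathways, with a point for each gene, called genes in red, and a line at the median of each list. The median is 1.25 for the sensing genes and between -0.06 and 0.11 for the lists, whose called genes number 1, 4, 0, and 1.

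The profile most like that of the sensing genes was sought across the other 11244 tested genes, by Pearson correlation with the mean standardized log2 profile of the 10 genes over the 6 libraries. The closest were *Apobec3* (r = 0.9976), *Slfn8* (0.9957), *Zcchc2* (0.9933), *Mfsd12* (0.9925), and *Siglec1* (0.9922). These values describe 6 libraries that fall into 2 groups, and 167 genes had a correlation above 0.95. *Siglec1*, which encodes the CD169 antigen of macrophages, had 366, 207, and 139 normalized CPM in WT and 19.5, 43.7, and 24.5 in *Ifnar1*-/- monocytes. *Apobec3*, a cytidine deaminase that restricts retroviruses, had 104, 98.0, and 84.7 against 57.3, 68.5, and 58.7 normalized CPM.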

How the data were processed

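RNA-seq of 3 WT and 3 *Ifnar1*-/- monocyte samples was analyzed from gene-level files. Per the submitters' processing notes and the methods, the authors mapped paired-end reads to GRCm38 and quantified genes with RSEM 1.2.31. STAR 2.6.0c is also listed. The deposited expected counts are estimated counts that need not be whole and are not normalized. The authors' deposited TPM and FPKM values are scaled by length and library, and RSEM's transcript lengths are in bases. The labels and the methods name different stranded library kits, and the strand setting of RSEM is not given in the sources used here.

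Expected counts were rounded and compared by edgeR (version 4.0.16, under R 4.3.3), with TMM factors, filterByExpr at a minimum count of 10, the quasi-likelihood test without a block, and Benjamini-Hochberg adjustment over 11254 genes. GENCODE M21 matched 54165 of 54232 identifiers and left 67. Exact permutation tests were two-sided. Spread between TPM neighbours was judged by the SD of their log2 ratio over 3 libraries and by the same order in each library. Alternatives were DESeq2 1.42.0, limma-voom (limma 3.58.1), RLE factors, library totals, other filters, removal of mitochondrial and ribosomal RNA genes, adjusted p alone, a replicate block, and leaving out each library. Restriction to protein-coding genes was added after seeing the data.

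The named genes are the 10 members, *Ifnar1*, the called genes of each list or otherwise its 3 most abundant by TPM, the 5 nearest profiles, and markers at 0 or in lists that differed. The result of 1 marker gene is not reported here. The members and lists were chosen with earlier results of these data known.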

Additional observations from a re-analysis of the deposited data

How the results depend on the processing

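All 8 called sensing genes remained called with DESeq2, limma-voom, RLE factors, library totals, both other filters, removal of mitochondrial and ribosomal RNA genes, and protein-coding genes only. Adjusted p alone only drops the fold-change limit from the main fit, so it could not remove a call. Leaving out 1 library gave 5 to 8 called sensing genes, 119 to 245 called genes among all tested (240 in the complete set), 1 to 2 in the list of RIG-I-like receptor and MAVS signaling, and 1 to 2 members with transcript lengths that did not overlap. *Tmem173* turned from a log2 fold change of 0.03 to -0.10 without WT library 2, and ranged from -0.10 to 0.17 as each library was left out. DESeq2 called 424 genes and no filter on low counts 872, against 240. The RIG-I-like receptor list had 2 called genes in place of 1 with DESeq2, library totals, and no filter. Without the filter, 1 nuclease or limiter was called in place of 0, and 2 partners in double-stranded RNA binding in place of 1. The list of DNA sensing and STING regulation had 6 called genes without the filter, in place of 4. It had 5 with DESeq2 (with or without a replicate block), library totals, at least 10 counts in every library, or protein-coding genes only. As each library was left out, its count ranged from 3 to 5. The cause of these changes was not tested. By FPKM, 8 of the 10 genes kept their rank in WT monocytes and 10 of 10 in *Ifnar1*-/- monocytes. Within a library, FPKM and TPM differ only by a common factor, so this does not test the order of genes. Only the weight of each library in the mean can shift a rank, and WT *Tmem173* and *Eif2ak2* both had a mean of 56.1 FPKM.

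The labels do not say that equal replicate numbers share a mouse, and the deviation from the group mean correlated across genes by 0.0871, 0.0266, and 0.289 between libraries 1, 2, and 3 of both groups. WT library 1 correlated more with *Ifnar1*-/- library 2 (0.101), whereas WT libraries 2 and 3 correlated most with the library of the same number. These values do not settle whether the numbers pair the libraries. The fit without a block was the main one, and the fit with it is given beside it. With the number as a replicate block, edgeR called 220 genes and DESeq2 264, both called the same 8 sensing genes, and the RIG-I-like receptor list had 2 called genes with either tool. *Trim25* then passed in edgeR (adjusted p = 0.0454). In transcript length, 3 members had the same sign in all 3 same-numbered pairs under this pairing. The share of all genes with this pattern was not computed, so the count does not show a shift in these members. With 3 libraries in each group, no permutation test could give a p below 0.1. *Mavs* and *Ddx60* in *Ifnar1*-/- monocytes rested on the fewest counts.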
